A study of Mus musculus with 55 samples.

Results

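Wild-type fully grown oocytes (FGOs) were sequenced as 18 single-cell libraries that fall into 2 sets of one genotype. Set 1 comprised replicates 1 to 8 and set 2 comprised replicates 9 to 18. The split follows the study's own listing of mapped reads, in which every library of set 1 lies under 80% and every library of set 2 at or above 80%. The 18 libraries are part of 55 in the series, of which 52 are oocytes. FGOs of both sets carried wild-type Dnmt3a and Dnmt3l alleles and came from females 10 to 12 weeks old on a C57BL/6J background. The labels give no collection date, sequencing run or animal for a library, so the mapped class, the replicate number and anything else that went with it cannot be told apart between the sets. Nothing in the labels ties each oocyte to a separate female, and p-values then measure the spread between these oocytes.

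The other oocytes were used for comparison. They were 10 wild-type MII oocytes, taken after hormonal stimulation, and 8 FGOs each of 3 mutants. The mutant FGOs are listed with the same age range of the females as the wild-type FGOs. The paper describes the mutant females as basically of the background given above for wild-type FGOs. No age is listed with the MII libraries. For collecting MII oocytes, the paper's methods give females of a wider age range that reaches older ages than that of the FGOs. The DNMT3L-ADD mutant is labelled Dnmt3a+/+Dnmt3LD124A/D124A, the DNMT3A-ADD mutant Dnmt3aADA/ADADnmt3L+/+, and the double mutant carries both Dnmt3aADA/ADA and Dnmt3LD124A/D124A. The mutations weaken the ADD domain, by which these proteins read unmethylated histone H3 tails. All 8 double mutant libraries were under 80% mapped and all 8 DNMT3L-ADD libraries at or above it. DNMT3A-ADD FGOs held 3 libraries under 80% and 5 above, and MII oocytes 3 and 7.

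An FGO has finished growing and stores maternal mRNA. When it resumes meiosis and becomes an MII oocyte, transcription is silent, stored mRNAs are activated by polyadenylation or degraded, and the nuclear envelope breaks down, so that nuclear RNA mixes with the cytoplasm. Small nucleolar RNAs (snoRNAs) and the related scaRNAs guide chemical modification of ribosomal and spliceosomal RNA, and most are cut from introns of host genes. Processed pseudogenes are copies of mature mRNAs that were inserted into the genome, so their sequence is often nearly that of the parent mRNA. Both biotypes were singled out after the values had been seen.

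The leading snoRNAs are shown first because they are short molecules that the oligo(dT)-primed chemistry of these libraries does not target by design. The C box TGATGA and the D box CTGA are in capitals in the box C/D snoRNA Snord17, and the ACA near the 3′ end in the box H/ACA snoRNAs Snora23 and Snora21. They were chosen from the members of each family with the lowest p and are written as DNA, 5′ to 3′, from GENCODE M21 (GRCm38), whose coordinates equal those in the count files.
Snord17: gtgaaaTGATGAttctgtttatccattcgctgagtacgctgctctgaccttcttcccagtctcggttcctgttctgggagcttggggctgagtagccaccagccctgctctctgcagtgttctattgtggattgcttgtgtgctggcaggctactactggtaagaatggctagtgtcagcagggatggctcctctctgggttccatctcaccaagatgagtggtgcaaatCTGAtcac
Snora23: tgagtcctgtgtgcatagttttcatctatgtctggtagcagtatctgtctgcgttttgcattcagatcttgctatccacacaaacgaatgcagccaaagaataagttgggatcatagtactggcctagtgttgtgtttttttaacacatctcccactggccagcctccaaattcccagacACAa
Snora21: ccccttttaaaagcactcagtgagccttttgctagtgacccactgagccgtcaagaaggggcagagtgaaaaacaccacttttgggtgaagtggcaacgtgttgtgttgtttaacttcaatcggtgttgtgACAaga

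The locations of these 3 are chr2:144265979-144266216 (Snord17, minus strand), chr7:110046364-110046547 (Snora23, plus) and chr11:97781639-97781775 (Snora21, minus). On the strand of the transcript, TGATGA followed later by CTGA was found in 12 of the 13 Snord genes tested and in 2.41% of other genes with transcripts of at most 300 bases. An ACA that ends within 5 bases of the 3′ end was found in all 8 Snora genes tested and in 11.1% of those other genes. These are letter matches and were not tested as functional sites.

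Levels are given as CPM, a library's count scaled to its total, after TMM scaling over the 52 oocyte libraries, and were not divided by gene length. A gene was called where edgeR's quasi-likelihood test gave an adjusted p below 0.05 and the fold change passed 2. Of 14664 genes tested, 546 were called between the sets (3.72%). Set 1 was higher for 448 of them (3.06%) and set 2 for 98 (0.668%). With no minimum fold, set 2 was higher for 11.2% and set 1 for 14.2%. The median log2 difference over all genes tested was -0.04, set 2 against set 1. The called genes were low: those higher in set 1 had a median mean level of 2.42 CPM and those higher in set 2 one of 1.28 CPM, against 15.7 CPM over all genes tested. Only 37 of the 448 and 13 of the 98 had sets whose libraries did not overlap at all, beside 353 of all genes tested.

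**Figure D1:**
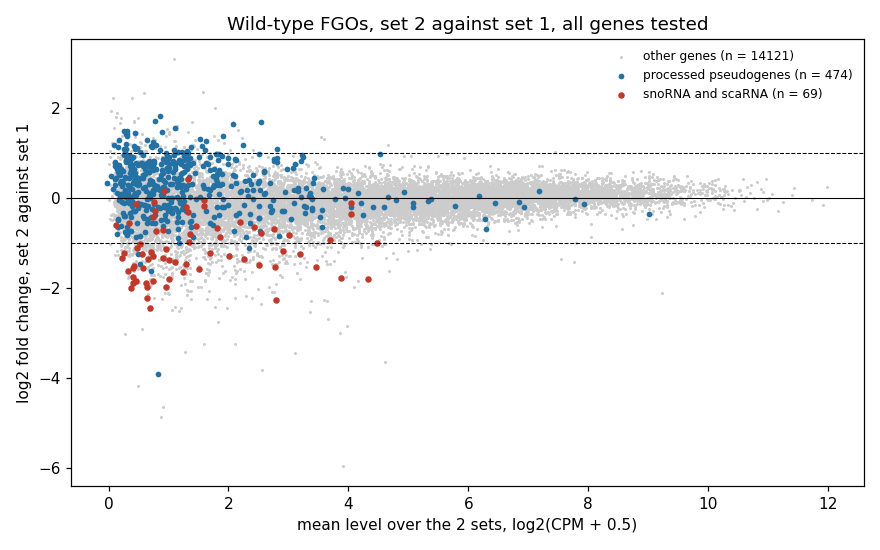
Each point is a gene tested between the sets, with the log2 fold change of set 2 against set 1 (y) over the mean level of both sets in log2(CPM + 0.5) (x), and dashed lines at 2-fold. The 69 snoRNAs and scaRNAs lie mostly below 0, the 474 processed pseudogenes lie more often above 0, and large differences of either sign are concentrated at low levels.

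Total counts were 11510790 to 15993658 in set 1 and 14434240 to 17216121 in set 2 (exact permutation test of the means, two-sided, p = 0.00345, adjusted p = 0.0069 over 6 library properties). Genes with at least 1 count were 20654 to 25859 and 21738 to 24237 (adjusted p = 0.689), and genes with at least 10 counts 13489 to 15760 and 14308 to 15483 (adjusted p = 0.867, same test). The 50 highest genes took 8.39 to 9.14% and 8.53 to 8.92% of counts (adjusted p = 0.867, same exact permutation test). Genes with over 8000 exonic bases took 29.6 to 30.5% in set 1 and 30.6 to 31.6% in set 2, without overlap (adjusted p = 0.000137). All 37 mitochondrially encoded genes are listed at 0 in every oocyte library, so their share could not be compared. No pair of libraries within a set had counts as close as sampling noise.

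SnoRNAs were higher in set 1. Of 59 snoRNAs tested, 38 (64.4%) were called higher in set 1 and none in set 2, with a median log2 difference of -1.29. The shares over all genes tested were 3.06% and 0.668%. Of 10 scaRNAs, 4 were called higher in set 1 (40%), and of 13 snRNAs also 4 (30.8%). The 42 called snoRNAs and scaRNAs differed by up to 5.48-fold.

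Snora23, an H/ACA snoRNA that guides pseudouridylation, had 5.86, 8.15 and 19.4 CPM in set 1 (lowest, median, highest) and 1.40, 2.09 and 3.30 CPM in set 2. Every library of set 1 lay above every library of set 2. The log2 difference was -2.27 ± 0.24 (SE, edgeR adjusted p = 8.94e-06). Snora21 had 3.36, 5.60 and 8.98 CPM in set 1 against 1.43, 2.42 and 3.15 CPM in set 2, again without overlap, a log2 difference of -1.36 ± 0.20 (edgeR adjusted p = 0.000103).

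The box C/D member shown above moved the same way. Snord17 had 12.4, 24.7 and 55.1 CPM in set 1 and 4.96, 8.27 and 17.1 CPM in set 2, with overlap (log2 difference -1.79 ± 0.27, edgeR adjusted p = 0.000145). Among those with clone-based names, Gm25835 had 12.4, 18.5 and 37.5 CPM in set 1 and 3.94, 6.30 and 8.88 CPM in set 2. Gm25776 had 7.23, 9.42 and 13.7 CPM against 3.61, 4.22 and 5.84 CPM. Both were without overlap and both had edgeR adjusted p-values under the threshold, with log2 differences of -1.78 ± 0.19 and -1.17 ± 0.14. The scaRNA Gm25395 had 22.1 to 34.4 CPM in set 1 and 11.9 to 17.2 CPM in set 2, and its difference lay at the 2-fold limit, which it missed under RLE scaling.

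Host genes of the called snoRNAs were read beside them. Of the 42 called snoRNAs and scaRNAs, 38 lie within a gene on the same strand by the coordinates in the count files, and 32 distinct hosts were tested. None of the 32 hosts was called, and 11 had an adjusted p below 0.05 in either direction. Over all genes tested 3.72% were called, so few calls would be seen among 32 genes at that share. Calls were rarer still at high levels: above 100 CPM, 0.119% of genes were called higher in set 1 and 0% in set 2. At an adjusted p below 0.05, 11.2% of all genes were higher in set 2 and 14.2% in set 1. The median log2 difference of the hosts was 0.07, with a range of -0.59 to 0.33. The median of the 42 called RNAs was -1.52. Snora23 lies in Ipo7, an importin gene, whose log2 difference was -0.33 (adjusted p = 0.0696). Snord17 lies in Snx5, a sorting nexin gene, at -0.54 (adjusted p = 0.0131), and Snora21 in Rpl23, a large-subunit ribosomal protein gene, at 0.13 (adjusted p = 0.188). Reads of a host's retained intron and of the snoRNA within it cannot be told apart in these counts.

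**Figure D2:**
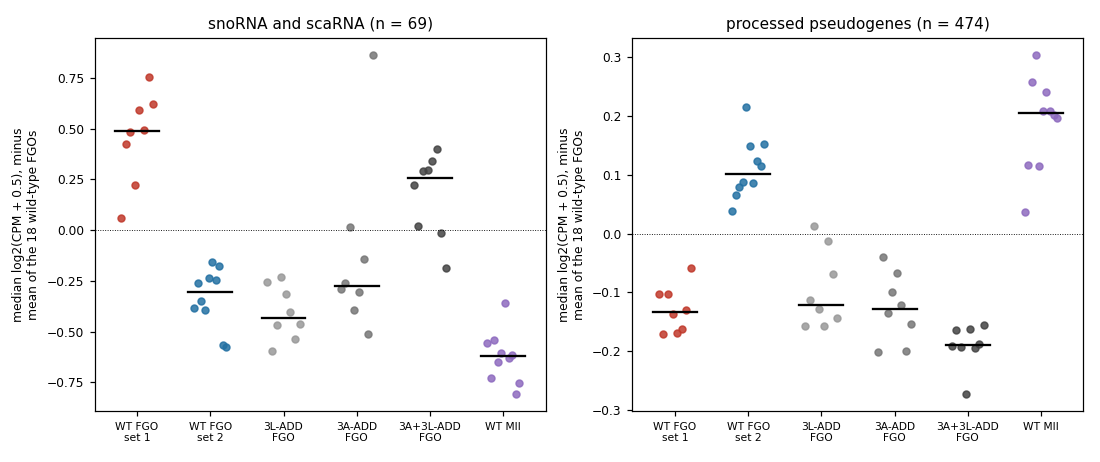
Each point is a library, and black bars are group medians; the y axis is the median over the genes of log2(CPM + 0.5) after subtracting each gene's mean over the 18 wild-type FGOs. For snoRNAs and scaRNAs (left, n = 69) set 1 runs from 0.06 to 0.75 and set 2 from -0.57 to -0.16, and for processed pseudogenes (right, n = 474) set 1 runs from -0.17 to -0.06 and set 2 from 0.04 to 0.21. On the left, double mutants run from -0.19 to 0.40, and DNMT3A-ADD replicate 8, at 0.86, lies above every library of set 1.

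Long RNAs that stay in the nucleus were also higher in set 1. Of the 5 in the list, 4 were called higher in set 1 (80%, against 3.06% of all genes tested): Xist, Kcnq1ot1, Malat1 and Neat1. Xist, which coats and silences an X chromosome in somatic cells, had 11.4, 18 and 87.3 CPM in set 1 and 0, 0.241 and 1.88 CPM in set 2. The sets did not overlap, and the log2 difference was -5.96 ± 0.61 (edgeR adjusted p = 5.61e-06), in absolute terms the largest of all genes tested. Malat1, a component of nuclear speckles, had 135, 222 and 529 CPM against 70.3, 95.4 and 211 CPM, with overlap (log2 difference -1.34 ± 0.26). Kcnq1ot1, the antisense RNA that silences an imprinted cluster, had 6.14, 15.2 and 40.6 CPM against 2.34, 3.67 and 7 CPM (log2 difference -2.30 ± 0.35). Neat1, the scaffold of paraspeckles, had 1.21, 2.70 and 12.4 CPM against 0.408, 1.23 and 2.45 CPM (log2 difference -1.67 ± 0.44, edgeR adjusted p = 0.0091), and in the fit of all 52 libraries it did not pass (adjusted p = 0.128). The 5 RNAs together took 0.0161 to 0.0698% of counts in set 1 and 0.00797 to 0.0233% in set 2 (exact permutation test, two-sided, adjusted p = 0.000687). They took 0.00427 to 0.0221% in double mutants, and 0.130% in replicate 8 of the DNMT3A-ADD FGOs, above every library of set 1.

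Other genes higher in set 1 were of mixed kinds. Gm10800 and Gm10801, neighbouring gene models on chromosome 2, had log2 differences of -3.66 ± 0.31 and -3.82 ± 0.33 without overlap. Gm10800 had 26.5, 35.5 and 76.9 CPM in set 1 and 1.22, 3.36 and 7.23 CPM in set 2. Rbmxl2, a germ-cell RNA-binding protein, had 11.3, 12.4 and 19.4 CPM against 4.75, 6.47 and 8.08 CPM (log2 difference -1.05 ± 0.12). Trim6, an E3 ubiquitin ligase, spread widely in set 1, from 0.572 to 28.3 CPM, and overlapped set 2 (0.129 to 4.08 CPM, log2 difference -3.44 ± 0.58).

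Of 327 zinc finger (Zfp) genes, 22 were called higher in set 1 and 1 in set 2, 6.73% against 3.06% of all genes tested. Such calls were more frequent at low levels, with 7.79% of all genes from 1 to 3 CPM and 5.36% from 3 to 10 CPM. The list was not matched for level, so its share cannot be read as particular to Zfp genes. Zfp395 had 2.01, 5.68 and 46.0 CPM in set 1 and 2.36, 3.20 and 4.76 CPM in set 2. Zfp367 had 1.51, 6.33 and 24.0 CPM against 1.30, 2.31 and 3.42 CPM. The sets overlapped in both. Zfp729a (log2 difference -1.43 ± 0.28) and Zfp800 (-1.80 ± 0.39) were the others with the lowest p. Of 37 replication-dependent histone genes, 2 were called, both higher in set 1 (5.41%, near the 3.06% of all genes tested), and the median over the list was -0.27. Hist1h2ah had 4.98, 8.16 and 12.6 CPM against 2.86, 3.86 and 5.57 CPM (log2 difference -1.10 ± 0.18). Replication-dependent histone mRNAs end in a stem-loop and are polyadenylated only in special settings such as the growing oocyte.

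Among 20 imprinted genes tested, 3 were called, all higher in set 1 (15%, against 3.06% of all genes tested): Kcnq1ot1, Peg10 and Sgce. This list was not matched for level either. Peg10, a retrotransposon-derived gene, had 4.02, 11 and 33.9 CPM against 3.98, 5.50 and 12.5 CPM (log2 difference -1.20 ± 0.36), and its neighbour Sgce, a sarcoglycan, 0.889, 1.40 and 2.34 CPM against 0.193, 0.759 and 1.24 CPM (log2 difference -1.01 ± 0.28). The sets overlapped in both. Of 13 DNA methylation genes 1 was called, higher in set 1 (7.69%, against 3.06% of all genes tested). It was Uhrf2, a relative of the maintenance factor Uhrf1, at -1.40 ± 0.30. The genes mutated in this series differed little. Dnmt3a had 247, 274 and 313 CPM in set 1 and 281, 316 and 361 CPM in set 2 (log2 difference 0.19 ± 0.06, edgeR adjusted p = 0.0181). Dnmt3l, its cofactor, had 80.9, 99.6 and 116 CPM against 128, 138 and 153 CPM, without overlap (log2 difference 0.47 ± 0.07, edgeR adjusted p = 8.08e-05). Neither passed the 2-fold limit.

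Many single processed pseudogenes were higher in set 2, while the class as a whole took a similar share of counts, 0.341 to 0.419% in set 1 and 0.329 to 0.372% in set 2. Of 474 tested, 41 were called higher in set 2 and 4 in set 1, with a median log2 difference of 0.28. The share higher in set 2 was 8.65%, against 0.668% of all genes tested. Such calls were more frequent at low levels, with 2.94% of genes up to 1 CPM and 1.98% from 1 to 3 CPM. The pseudogenes tested had a median mean level of 1.54 CPM. Among genes past the 2-fold limit, the 10 with the lowest p of those higher in set 2 were all processed pseudogenes. The 41 made up a large share of the 98 genes called higher in set 2, the others being mostly protein-coding (47).

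Nudc-ps1, a copy of the gene for the dynein cofactor NUDC, had 1.70, 2.44 and 3.44 CPM in set 1 and 6.39, 8.21 and 10.5 CPM in set 2. The sets did not overlap (log2 difference 1.71 ± 0.16, edgeR adjusted p = 1.67e-06). Tpt1-ps3, a copy of the translationally controlled tumour protein gene, had 2.84, 4.44 and 5.25 CPM against 6.52, 8.78 and 12.6 CPM, without overlap (log2 difference 1.09 ± 0.15, edgeR adjusted p = 6.86e-05). Gm6493, closest to Tnpo1, a nuclear import receptor gene, had 1.40, 1.81 and 2.14 CPM against 4.00, 5.23 and 9.48 CPM (1.65 ± 0.17). Gm13092, closest to Snrpf, a core snRNP protein gene, had 0.286, 0.561 and 0.801 CPM against 1.27, 2.02 and 3.70 CPM (1.83 ± 0.24). Both again were without overlap. Others by the lowest p were Gm6457, Gm11560, Gm14292, Gm5939, Gm8566 and Vcp-rs.

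How close a copy is to its parent is seen in a stretch of the coding sequence of 2 pairs, with differing bases in capitals; the pseudogene positions count from its first base and the parent positions from the start codon.
Nudc-ps1, bases 1 to 60: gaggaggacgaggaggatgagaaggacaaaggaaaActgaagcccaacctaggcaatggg
Nudc, bases 442 to 501: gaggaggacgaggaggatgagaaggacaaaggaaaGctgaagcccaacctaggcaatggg
Gm13092, bases 3 to 62: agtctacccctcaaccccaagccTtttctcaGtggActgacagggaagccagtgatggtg
Snrpf, bases 4 to 63: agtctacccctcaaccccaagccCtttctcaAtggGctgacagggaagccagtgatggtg

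The stretches differ at 1 and 3 positions. Over the whole match, Nudc-ps1 was 98.9% identical to Nudc, Gm13092 98.8% to Snrpf and Gm6493 97.2% to Tnpo1, and Tpt1-ps3 was 100% identical to Tpt1 over all of its 519 bases. A read from such a stretch can be placed on either copy, so these pseudogene counts are uncertain.

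The set difference was larger for the closer copies. A protein-coding transcript was matched by blastn for 471 of the 474. Among pseudogenes under 90% identical, 1 of 91 was called higher in set 2 (1.10%), with a median log2 difference of -0.17. From 90 to 95% it was 5 of 76 (6.58%), from 95 to 98% 10 of 99 (10.1%), and over 98% 25 of 205 (12.2%), with a median of 0.47. The 41 called had a median identity of 98.8% and a median longest exact run of 183 bases. Their parents were not called: 0 of 41, where the share called over all genes tested was 3.72%. At higher levels, where many parents lie, calls were rarer. From 30 to 100 CPM 0.192% of genes were called higher in set 1, and above 100 CPM 0.119%, with 0% higher in set 2 in both. The absence of calls among parents is therefore no contrast with the pseudogenes. The parents had a median log2 difference of 0.15 and a range of -0.35 to 0.59. Nudc itself had a log2 difference of 0.59 (adjusted p = 0.00289), with medians of 379 CPM in set 1 and 637 CPM in set 2. Tpt1, at 133 and 144 CPM, differed by 0.10 (adjusted p = 0.191). Read length and the share of reads with more than one placement are not given per library, and their part in this result was not tested.

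**Figure D3:**
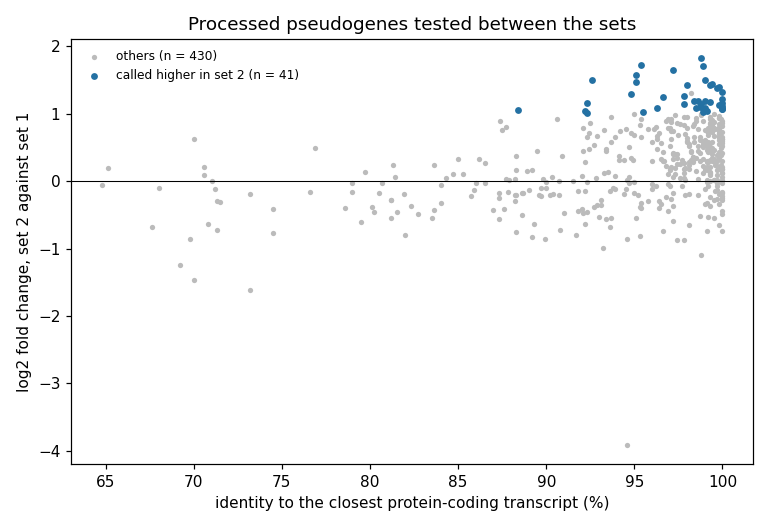
Each point is a processed pseudogene tested between the sets, with its identity to the closest protein-coding transcript in percent (x) and its log2 fold change of set 2 against set 1 (y). The 41 called higher in set 2 (blue) have a median identity of 98.8%, and 1 of them is under 90%.

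Ribosomal protein pseudogenes named as such showed the same direction, with a median of 0.31. Of 16, 2 were called higher in set 2, Rpl10a-ps1 and Rps24-ps3 (12.5%, against 0.668% of all genes tested). The genes for the cytosolic ribosomal proteins had 1 of 80 called, Rpl10l, higher in set 1 (1.25%, against 3.06% of all genes tested), and a median of -0.10. Protein-coding genes higher in set 2 with at least 10 CPM in 1 set were Cdk5r2, a neuronal kinase activator (log2 difference 1.32 ± 0.42), and Inhbb, described with the cell type markers.

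Over all genes tested 3.72% were called, so lists as short as the next ones would hold few called members at that share. The share also fell with level. From 30 to 100 CPM 0.192% of genes were called higher in set 1, and above 100 CPM 0.119%, with 0% higher in set 2 in both. Lists of genes at such levels would hold almost no called members. None of 26 oocyte identity genes was called, and the median was -0.11. With no minimum fold, 9 had an adjusted p below 0.05 and were higher in set 1, beside 14.2% of all genes. Oosp1, an oocyte-secreted protein, had 509, 565 and 705 CPM in set 1 and 359, 429 and 489 CPM in set 2, without overlap, and differed by -0.47 ± 0.07 (edgeR adjusted p = 0.000139). Ooep, a part of the subcortical maternal complex, differed by -0.29 ± 0.05. None of 24 genes of meiotic arrest and resumption was called: Ccnb1, cyclin B1, was at -0.23 ± 0.05 and Pde3a, the oocyte phosphodiesterase, at 0.17 ± 0.04. None of 21 maternal mRNA decay genes was called, and Cnot3, a deadenylase subunit, was at 0.47 ± 0.08. Of 14 genes of mRNA storage 1 was called, Ddx6, a P-body helicase, at -1.02 ± 0.30, which fell below 2-fold under another scaling.

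Few members of the housekeeping groups were called at 2-fold, where the share over all genes tested was also low (3.72%). It was lower still at high levels, as given above. More differed at any fold, where the shares over all genes were 11.2% higher in set 2 and 14.2% in set 1. Kinesins had 0 of 38 called, with 10 higher in set 2 and 1 in set 1 at any fold, among them Kif2c (148, 175 and 195 CPM against 210, 226 and 250 CPM, without overlap) and Kif17. Of 51 splicing and RNA-binding genes 0 were called, with 15 higher in set 2 and 7 in set 1 at any fold. Of 44 proteasome genes 0 were called, of 76 mitochondrial ribosomal protein genes 0, of 62 translation factors 1 (Eif1a), and of 79 nuclear oxidative phosphorylation genes 1 (Atp5s, which together with Eif1a was higher in set 1). At any fold, translation factors had 18 higher in set 2 and 4 in set 1, oxidative phosphorylation genes 6 and 23, cytosolic ribosomal protein genes 4 and 27 of 80, proteasome genes 8 and 5, and mitochondrial ribosomal protein genes 6 and 10. None of 20 immediate early and heat shock genes was called, and Jund was at -0.90 ± 0.20. Of 9 genes of the unfolded protein and integrated stress response 1 was called, Xbp1, at -1.35 ± 0.39. Of 4 genes known to vary between laboratory strains 0 were called.

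Genes used as somatic markers were read between the sets. Over all genes tested, 3.06% were called higher in set 1 and 0.668% in set 2. Of 13 granulosa and cumulus markers tested, Inhbb was called higher in set 2 and Wt1 higher in set 1. Inhbb, the inhibin beta B subunit, had 2.14, 4.49 and 17.4 CPM in set 1 and 4.47, 15.5 and 31.2 CPM in set 2 (log2 difference 1.36 ± 0.41, edgeR adjusted p = 0.0183). The summed level of the 15 listed markers was 147 to 249 CPM in set 1 and 138 to 257 CPM in set 2. Of 6 theca and interstitial markers, Cyp17a1, the androgen-forming enzyme, was called higher in set 1: it had 1.01, 2.56 and 4.99 CPM there and 0, 0 and 0.328 CPM in set 2, without overlap (log2 difference -4.88 ± 0.54). The sum over the 8 theca markers was 25.2 to 80.2 CPM against 14.7 to 149 CPM, and Insl3 was at 0 in all 18 libraries. The stroma list (11 markers) summed to 222 to 324 CPM against 331 to 452 CPM, nearly all of it from Myh11, a smooth muscle myosin named here after its values were seen, at 215 to 317 CPM in set 1 and 326 to 445 CPM in set 2. Acta2, smooth muscle actin, was its called member, higher in set 2, with overlap (log2 difference 1.43 ± 0.51, edgeR adjusted p = 0.0467). Of 4 endothelial and blood markers tested none was called. In MII oocytes, the summed levels were 112 to 141 CPM for granulosa and cumulus markers and 2.18 to 12.7 CPM for theca markers. The stroma list summed there to 325 to 452 CPM, near its level in set 2, while Acta2 was at 0 in all 10 MII libraries. How much of these sums comes from somatic cells, and the part of other cells in these differences, was not tested.

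The double mutant FGOs, whose libraries are all in the lower mapped class, lay with set 1 for most of its genes. Of the 448 genes higher in set 1, the double mutant mean of log2 levels was nearer set 1 for 323 (72.1%), while the DNMT3A-ADD mean was nearer set 1 for 66 (14.7%), the DNMT3L-ADD mean for 38 (8.48%) and the MII mean for 7 (1.56%). These shares were taken over called genes only, without the share over all genes tested, so they cannot be read as particular to the called genes. For the 327 protein-coding genes higher in set 1 the double mutant was nearer set 1 in 250. For the 42 snoRNAs and scaRNAs higher in set 1 it was 24. Fgd3, a guanine nucleotide exchange factor, had medians of 12.3 CPM in set 1, 3.29 CPM in set 2, 26.5 CPM in double mutants, 5.94 CPM in DNMT3L-ADD FGOs and 9.10 CPM in DNMT3A-ADD FGOs. Xist did not follow this pattern: its median was 18 CPM in set 1, 0 in double mutants and 7.40 CPM in DNMT3A-ADD FGOs. Of the 41 pseudogenes higher in set 2, all 41 were nearer set 1 in double mutants, 28 in DNMT3L-ADD FGOs and 30 in DNMT3A-ADD FGOs, and 3 in MII oocytes. The 47 protein-coding genes higher in set 2 differed from them in MII oocytes, which were nearer set 1 for 34 (72.3%), and over all 98 genes higher in set 2 MII oocytes were nearer set 1 for 40 (40.8%). In double mutants and DNMT3L-ADD FGOs, genotype and mapped class cannot be told apart.

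**Figure D4:**
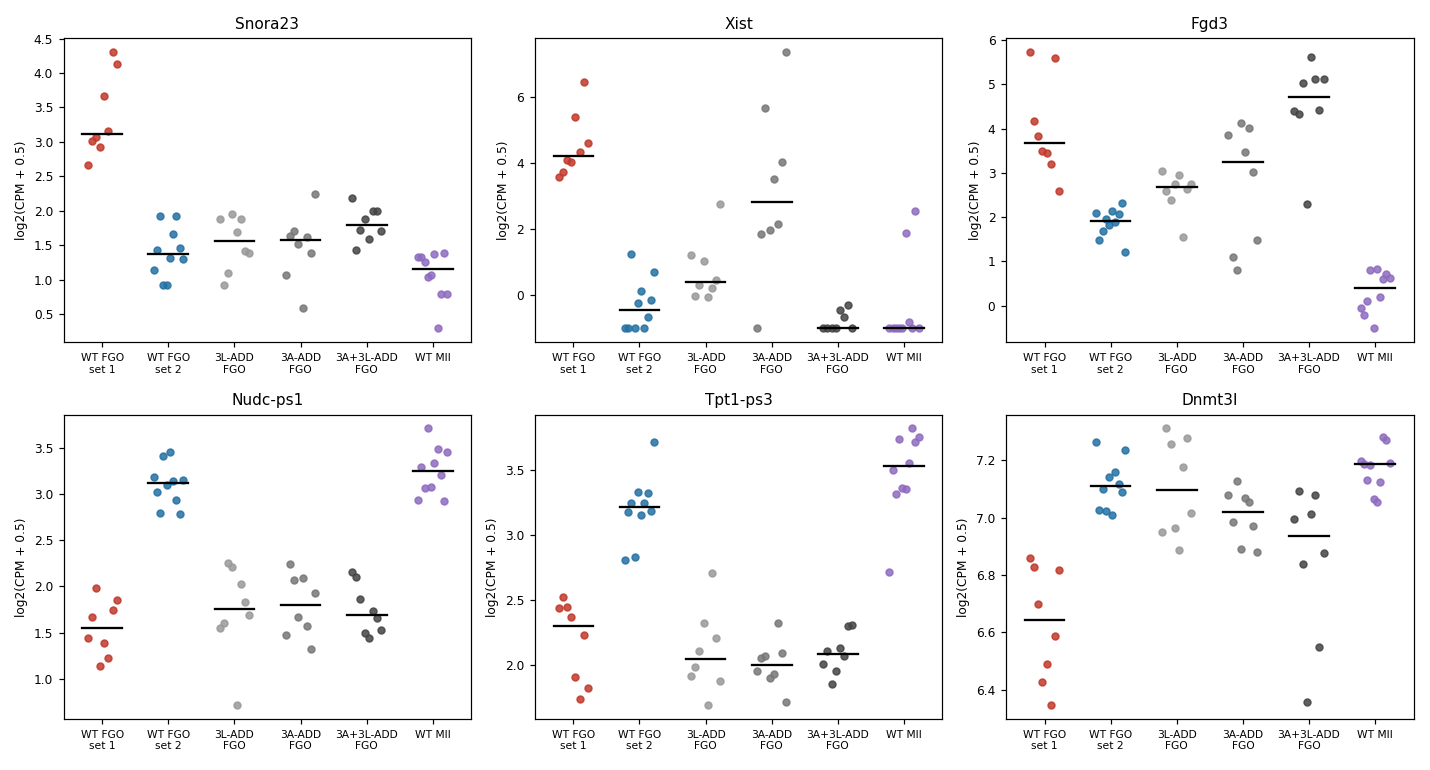
Levels of 6 genes in log2(CPM + 0.5), one point per oocyte library and a black bar at each group median. Snora23, Xist, Nudc-ps1, Tpt1-ps3 and Dnmt3l have sets 1 and 2 without overlap, as does Fgd3, where the double mutant (3A+3L-ADD) median of 26.5 CPM lies above that of set 1, and the pseudogenes are near the level of set 1 in all 3 mutants and near that of set 2 in MII oocytes.

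The mapped class was also compared within a genotype. DNMT3A-ADD FGOs, 5 libraries in the higher and 3 in the lower class, had no gene called by edgeR (0%), and MII oocytes, 7 and 3, had none (0%). At an unadjusted p under 0.05 there were 826 of 14902 genes in DNMT3A-ADD FGOs and 1429 of 14073 in MII oocytes. Of 490 genes called between the sets and tested in DNMT3A-ADD FGOs, 235 (48.0%) had the same sign in the class difference there, and of 381 tested in MII oocytes 220 (57.7%) did. The median class difference was 0.02 in DNMT3A-ADD FGOs for the genes higher in set 1 and -0.03 for those higher in set 2, and in MII oocytes it was -0.05 and 0.24, the signs of the set difference. With 3 libraries in the smaller class, these comparisons could show large differences only.

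The set difference was then set beside the MII change. Against set 1, 1734 of 14906 genes were called in MII oocytes, 160 higher (1.07%) and 1574 lower (10.6%). Against set 2, 728 were called, 15 higher (0.101%) and 713 lower (4.78%). The comparisons share the same MII libraries. Of 520 processed pseudogenes tested, 116 were higher in MII than in set 1 and 5 were higher in MII than in set 2. Of 64 snoRNAs and scaRNAs, 44 were lower in MII than in set 1 and 5 lower than in set 2. The number of genes read as changed on maturation therefore depended on which set of wild-type FGOs was the reference.

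A measure of the MII change that shares no library with either set came from the mutant FGOs. In it, stage and genotype cannot be told apart, because the MII oocytes were wild-type and the FGOs were mutants. Maturation genes were those called in the same direction in MII oocytes against each of the 3 mutants: 58 of 14830 were higher in MII (0.391%) and 347 lower (2.34%). Of the 55 higher in MII that were tested between the sets, 22 (40%) were called higher in set 2, against 0.668% of all genes, and 1 higher in set 1. Of the 326 lower in MII, 51 (15.6%) were called higher in set 1, against 3.06% of all genes, and 3 higher in set 2. The median log2 difference between the sets was 0.93 for the former and -0.35 for the latter.

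The leading maturation genes of the upward group were pseudogenes. Nudc-ps1 had a median of 9.02 CPM in MII oocytes, 8.21 CPM in set 2 and 2.74 to 2.99 CPM in the 3 mutants. Tpt1-ps3 had 11 CPM in MII oocytes, 8.78 CPM in set 2 and 3.52 to 3.76 CPM in the mutants. These genes were chosen as differing between MII oocytes and every mutant and between the sets, which largely fixes this order. Between MII oocytes and set 2, both wild-type, neither Nudc-ps1 nor Tpt1-ps3 was called. Their log2 differences there were 0.16 (edgeR adjusted p = 0.41) and 0.30 (edgeR adjusted p = 0.124). AC147101.1, a gene model that GENCODE M21 does not match by symbol, went the other way, being higher in MII (4.59 CPM) and set 1 (4.10 CPM) than in set 2 (1.34 CPM). In the downward group, Gm15564, an antisense RNA, had medians of 3.30 CPM in MII, 3.71 CPM in set 2 and 8.64 CPM in set 1, and the snoRNA Gm23136 had 0.140, 0.310 and 1.85 CPM. Fgd3 had 0.836, 3.29 and 12.3 CPM. For all 3 the order of the medians was set 1, set 2, MII. Inhbb was an exception, at 0 in MII and 15.5 CPM in set 2 against 4.49 CPM in set 1.

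Across the 14438 genes tested in both, the set difference and the mean MII difference from the mutants correlated with Pearson's r of 0.412 and Spearman's rho of 0.464. Genes are not independent replicates, and no p is given. The sign was the same in both for 9732 of the 14438 genes (67.4%). Of 502 genes called between the sets, 455 (90.6%) had the same sign in both. Among those higher in set 1 it was 395 of 412 (95.9%). Among those higher in set 2 it was 60 of 90 (66.7%), near the share over all genes. All 39 called snoRNAs and scaRNAs and 42 of 44 called pseudogenes had the same sign, as did 312 of 348 called protein-coding genes.

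**Figure D5:**
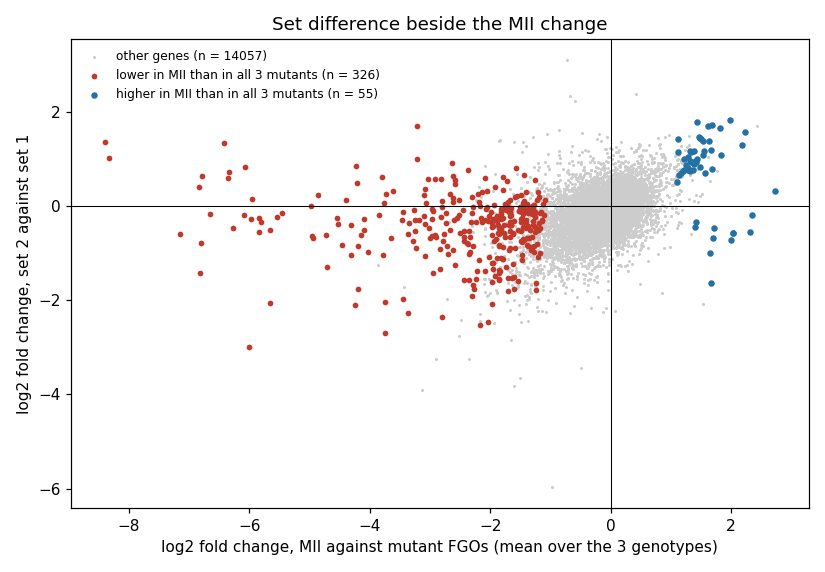
Each point is a gene, with the log2 fold change of MII against mutant FGOs averaged over the 3 genotypes (x) and of set 2 against set 1 (y). The 55 genes higher in MII (blue) have a median of 0.93 and the 326 lower in MII (red) a median of -0.35 on the y axis.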

How the data were processed

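Single oocytes were sequenced with SMART-Seq HT chemistry, which primes on poly(A). The deposited values are raw read counts per gene that the authors made with STAR and a read counter (featureCounts in the methods, HTSeq also in the submitters' processing notes) on mm10, one table per library. Annotation release, strand setting and treatment of reads with several placements are not given in the sources used here. The methods name 2 read lengths without assigning them to libraries.

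Counts were fitted with edgeR 4.0.16 in R 4.3.3 (TMM, filterByExpr with a minimum of 10 counts, quasi-likelihood F test, Benjamini-Hochberg over all genes tested). The sets were fitted on 18 libraries, MII against each set on 28, and MII against the mutants on 34. Biotypes and sequences came from GENCODE M21 by symbol (14186 of 14664 tested genes matched), pseudogene parents from blastn (E-value 1e-20, best score among the longest coding transcript of each gene), and snoRNA hosts from the smallest gene on the same strand that contains them. Library properties used exact permutation tests over 43758 splits. On simulated counts for 14384 genes with 200 changed by 2 on the log2 scale, the fit for the set comparison found 184, with 3 wrong calls.

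The genes named were the 10 with the lowest p in each direction, the 5 largest folds above 10 CPM, Dnmt3a and Dnmt3l, up to 4 called members of each list (otherwise up to 2 with the lowest p), and up to 5 maturation genes in each direction. Snord17, Myh11, host genes and parents were added after their values were seen. The members and gene lists were chosen with earlier results of these data known. The 3 embryo libraries were not used, and some items that the rule names are not reported here. Alternatives tried were other scalings, filters, tools, fits and leaving out each library. All intervals and errors cover these libraries only.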

Additional observations from a re-analysis of the deposited data

Results flagged for a closer look

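In 160 groups of values (74 named genes and 6 library properties in each set), 14 held 1 library far from the others of its set by Dixon's criterion, where chance flags about 5% of groups. In set 2, replicate 11 was the highest for Malat1 (211 CPM), Acta2 (7.97 CPM), Wt1 (1.59 CPM) and the share of counts in nuclear-retained RNA (0.0233%). Replicate 17 was the highest for Cdk5r2 (47.3 CPM) and Gm5939 (3.33 CPM), replicate 18 for Gm13092 (3.70 CPM) and Tpt1-ps3 (12.6 CPM), replicate 13 for Gm6493 (9.48 CPM), replicate 15 for Myocd (6.04 CPM) and replicate 14 for Rps24-ps3 (2.82 CPM). In set 1, replicate 7 was the highest for Xist (87.3 CPM) and Neat1 (12.4 CPM), and replicate 8 for Gm11560 (1.73 CPM).

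A test of the difference itself, the set difference in wild-type FGOs less the mapped-class difference in DNMT3A-ADD FGOs, gave 21 of 16908 genes with an edgeR adjusted p below 0.05, and in 3 of these the 2 differences were more than 2-fold apart. This test was added after the data were seen.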

How the results depend on the processing

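The genes called between the sets numbered 546, and 1449 without the filter on low counts, 61 among genes of at least 10 CPM and 3720 with no minimum fold. Leaving out each library gave 382 to 729. DESeq2, the edgeR exact test, RLE and upper-quartile scaling, robust estimation and the fits of 42 and 52 libraries gave 525 to 720, with set 2 the higher for 17.5 to 20.8% of them. Over all of these alternatives but the 10 CPM filter, 447 genes were called each time, and 263 in every fit without 1 library. MII against set 1 gave 1734 genes, 7334 with no minimum fold and 5321 without the filter; MII against set 2 gave 728, 3257 and 2075, and 49 with the replicate block, in which only 2 numbers are shared. Maturation genes numbered 405, and 2269 with no minimum fold. The class in DNMT3A-ADD FGOs gave 0 genes, 139 without the filter and 0 to 3 without 1 library (3 without replicate 8), and in MII oocytes 0, 12 without the filter and 0 to 1 (1 without replicate 1). Of the gene lists, 15 held a called member, and 6 among genes of at least 10 CPM. After thinning to the lowest total, genes with at least 10 counts differed by -366 (exact permutation p = 0.0374) in place of -47.7. The causes of these shifts were not tested.

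The sets share no replicate number, so no paired analysis of them was possible. MII oocytes and FGOs share only numbers: same-numbered deviations correlated at -0.177 to 0.177 over 8 pairs with set 1, none best with its own number. Other results of the replicate block stayed within 1.5 times. No named gene changed sign. Calls lost in some alternatives were those of Acta2, Cdk5r2, Ddx6, Eif1a, Gm25395, Hist1h2ag, Neat1, Peg10, Rbmxl2, Rpl10l, Rps24-ps3, Sgce and Xbp1. The low levels of the called genes limit their precision.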
